A study of Homo sapiens with 6 samples.

Results

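The genes described here are 32 genes of cholesterol synthesis and sterol handling, taken by name from the deposited count table of 20263 genes after its Ensembl identifiers had been matched to symbols. All 32 were found, all 32 passed the filter on low counts, and they were ordered by pathway step. They were measured by sequencing polyadenylated RNA of AsPC-1 cells, a line from a human adenocarcinoma of the pancreas. The 3 groups compared held 2 libraries each. Cells of the HMOX1si1 group and of the HMOX1si2 group had each been transfected with a different siRNA against HMOX1, and siControl cells with a negative control siRNA, all 3 with the same transfection reagent and in the same medium with serum. The sources used here do not give the time from transfection to RNA extraction. All cells are of 1 line, and whether the 2 libraries of a group came from separate cultures is not stated: the p-values cover the spread between these libraries alone, and that spread may be technical. The product of HMOX1, heme oxygenase-1, is inducible and cleaves heme.

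Cholesterol is built from acetyl-CoA through mevalonate, the isoprenoids and squalene to lanosterol, which a further set of enzymes in the endoplasmic reticulum demethylates, reduces and isomerises to cholesterol. Transcription of most of these enzymes is driven by SREBP-2, the product of SREBF2, which is held in the endoplasmic reticulum by SCAP and the INSIG proteins when sterols are plentiful and is cleaved and sent to the nucleus when they are scarce. Several steps use iron or heme directly: the lanosterol demethylase CYP51A1 is a cytochrome P450, and the C4-methyl oxidase MSMO1 and the desaturase SC5D are non-heme iron enzymes. In the opposite direction, oxysterol-activated LXR receptors raise the cholesterol exporters ABCA1 and ABCG1 and the ubiquitin ligase MYLIP.

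Sequence was read from RefSeq's promoter windows on GRCh38.p14, which reach from 250 bases before to 50 bases after each annotated start. Of the 32 genes 28 had at least 1 window, 36 windows in all. ACAT2, FDFT1, SQLE and ABCG1 had none. Each window was searched on both strands for 3 motifs: CCAAT, the box bound by NF-Y, a partner of the SREBP factors at sterol gene promoters; TCACNCCAC, one form of the sterol response element; and CACGTG, the palindromic E-box. The stretches below belong to genes that differed between knockdown and control, and to SREBF2, the 1 gene with a match to the sterol response element. SOAT1 also differed and has a window, but is not printed. Its window held 1 CCAAT, 85 bases before the start. That of IDI1 comes from 1 of its 3 windows. They are printed 5′ to 3′ on the strand of the gene, and except for EBP and TM7SF2, where 30 bases around a match are given, they lie outside the annotated exons of protein-coding genes. Capitals mark CCAAT or its reverse complement ATTGG, and in SREBF2 also the sterol response element.
IDI1, chr10:1049171-1049369, minus strand: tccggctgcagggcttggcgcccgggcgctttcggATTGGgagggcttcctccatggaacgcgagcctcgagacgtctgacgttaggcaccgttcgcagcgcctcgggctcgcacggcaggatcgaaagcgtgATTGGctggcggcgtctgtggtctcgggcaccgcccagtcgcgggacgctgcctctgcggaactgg
CYP51A1, chr7:92134531-92134665, minus strand: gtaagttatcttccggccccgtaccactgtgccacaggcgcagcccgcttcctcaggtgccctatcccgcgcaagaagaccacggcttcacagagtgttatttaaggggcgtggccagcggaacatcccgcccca
TM7SF2, chr11:65111786-65111815, plus strand: ccccgagcgccgATTGGctggtgtgctggg
MSMO1, chr4:165327419-165327622, plus strand: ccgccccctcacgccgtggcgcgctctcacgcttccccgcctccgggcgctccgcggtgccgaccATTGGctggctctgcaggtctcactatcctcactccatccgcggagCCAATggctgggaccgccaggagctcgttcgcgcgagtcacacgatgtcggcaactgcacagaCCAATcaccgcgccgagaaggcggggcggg
EBP, chrX:48521766-48521795, plus strand: cttcgcttcaccATTGGctcgctccgtaag
STARD4, chr5:111512591-111512785, minus strand: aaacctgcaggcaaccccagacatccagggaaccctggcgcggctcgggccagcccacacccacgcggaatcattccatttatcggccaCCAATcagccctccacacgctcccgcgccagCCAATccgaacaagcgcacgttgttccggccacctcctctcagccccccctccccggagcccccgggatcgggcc
MYLIP, chr6:16128836-16129085, plus strand: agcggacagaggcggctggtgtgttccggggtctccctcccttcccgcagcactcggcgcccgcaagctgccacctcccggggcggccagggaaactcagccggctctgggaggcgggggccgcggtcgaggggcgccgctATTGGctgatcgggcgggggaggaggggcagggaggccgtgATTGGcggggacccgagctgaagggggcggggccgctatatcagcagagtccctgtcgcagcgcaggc
SREBF2, chr22:41832956-41833015, plus strand: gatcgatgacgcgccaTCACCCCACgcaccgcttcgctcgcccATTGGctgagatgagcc

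CCAAT stood in a window of 19 of the 28 genes (67.9%), against 39.7% of all 27305 genes with a window in the RefSeq table and 42.8% of the 10913 tested genes with a window. The most copies in 1 window were 5, in MVK and in NSDHL, neither of which passed the test of expression described below. The window of MSMO1 held 4, at 185, 139, 76 and 34 bases before the start, of which the first 3 stand in the printed stretch, and that of EBP held copies 191, 70 and 30 bases before it. MVD, FDPS and 1 window of IDI1 held 3 each. STARD4, MYLIP, HSD17B7 and 1 window each of HMGCS1, IDI1 and DHCR7 held 2. The palindrome CACGTG stood in 5 of 28 genes (17.9%), against 8.77% of all genes with a window and 12.4% of tested ones. TCACNCCAC was found in 1 of 28 (3.57%), against 1.39% of all genes with a window and 1.49% of tested ones. That 1 match lay in SREBF2, 133 bases before the start, and the same window held a CCAAT box on the opposite strand 106 bases before the start. The window of CYP51A1 held none of the 3 motifs. A match is a run of letters, not a measured binding site, and the absence of one says only that these letters were not in this window.

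**Figure D1:**
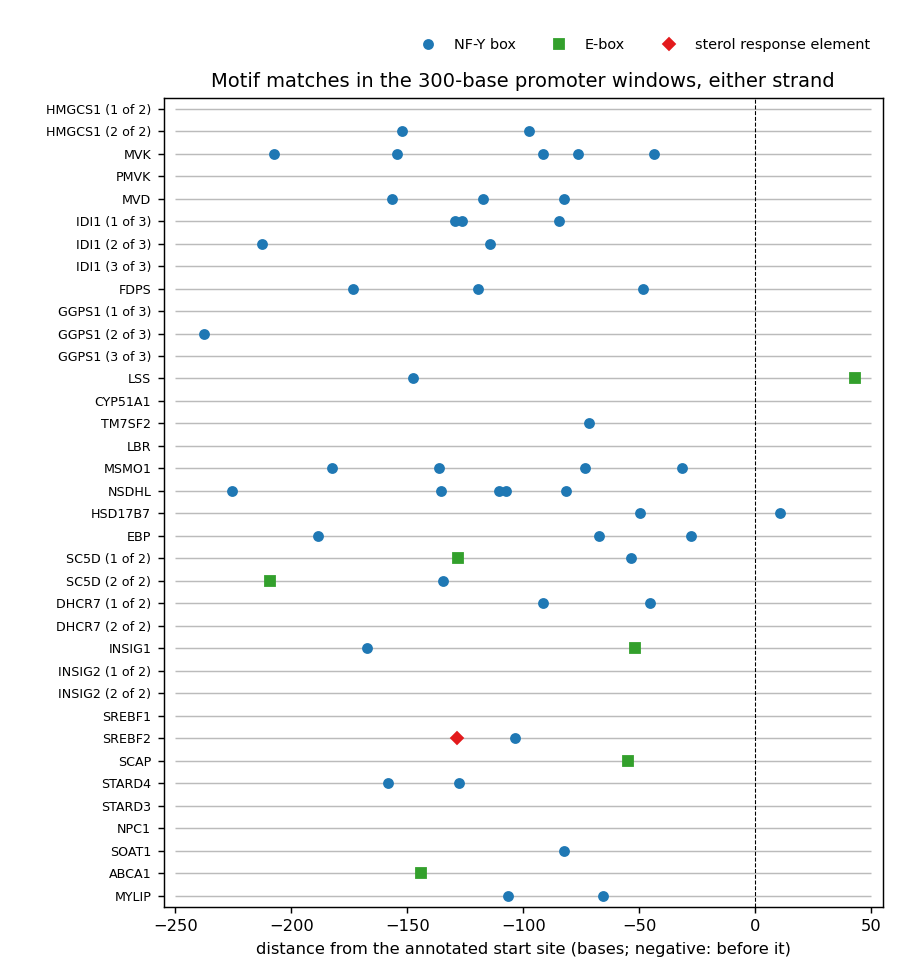
Motif matches on either strand of the 36 promoter windows of 28 sterol genes, by distance in bases from the annotated start site (dashed line), with blue circles for the NF-Y box CCAAT, green squares for the E-box and a red diamond for the sterol response element. Blue circles stand in windows of 19 of 28 genes and the red diamond only in that of SREBF2.

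The knockdown was visible in every library. HMOX1 had 102 and 112 counts in the HMOX1si1 libraries and 55 and 53 in the HMOX1si2 libraries, against 328 and 378 in the siControl libraries. The fit placed the transcript at 29.8% of control with HMOX1si1 and at 13.9% with HMOX1si2, log2 fold changes of −1.75 (SE 0.16, edgeR adjusted p = 0.00618) and −2.85 (SE 0.17, adjusted p = 0.00951). Without siControl replicate 2 these had adjusted p-values of 0.0637 and 0.0960, and without siControl replicate 1 the value with HMOX1si2 had 0.0778, so they did not pass there. Library totals ran from 36.1 to 45.1 M counts, with 14999 to 15220 genes above 0, and 13769 genes were tested. The epithelial keratins KRT8, KRT18 and KRT19, which mark these cells, were at 2050 CPM or more in all 6 libraries, where CPM is the count scaled to a common library size after TMM adjustment. KRT7, a further keratin among the markers, was far lower, at 22.9 to 31.3 CPM. EPCAM, at 613 to 686 CPM, overlapped between knockdown and control libraries. The 8 epithelial markers together summed to 9372 and 9769 CPM in HMOX1si1, 13560 and 13560 CPM in HMOX1si2 and 13730 and 15590 CPM in siControl. That sum is mostly keratin, and CDH1 went the other way. It had 111 and 98.5 CPM in HMOX1si1 and 142 and 111 CPM in HMOX1si2, against 91.0 and 74.9 CPM in siControl. CLDN4 was below both controls in all 4 knockdown libraries, but its replicates were far apart. It had 6.13 and 647 CPM in HMOX1si1 and 646 and 147 CPM in HMOX1si2, against 740 and 853 CPM in siControl. Of 6 fibroblast markers 4 stayed under 1 CPM, and the summed level, nearly all of it LUM, was 95.42 and 91.17 CPM in HMOX1si1, 78.96 and 86.96 CPM in HMOX1si2 and 125.4 and 119.3 CPM in siControl. The blood marker CD3E and the pancreatic markers CPA1, INS and SST had no count in any library. The 5 blood markers, mostly CD68 and LYZ, summed to 171.3 and 201.6 CPM in HMOX1si1, 151.8 and 121.2 CPM in HMOX1si2 and 126.6 and 145.9 CPM in siControl. CD68 was above both controls in all 4 knockdown libraries, at 94.5 to 163 CPM against 87.6 and 92.5 CPM. LYZ was not, at 22.7 to 38.7 CPM against 38.7 and 53.2 CPM. The 4 endothelial markers summed to at most 1.713 CPM. The part that the differing marker sums have in the results below was not tested, and in bulk RNA fewer cells of a type and less RNA per cell cannot be told apart.

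Against siControl, with both siRNAs given equal weight, 7 of the 32 sterol genes were lower and 2 were higher. The 7 were the enzymes IDI1, SQLE, CYP51A1, TM7SF2, MSMO1 and EBP and the sterol carrier STARD4, and the 2 were SOAT1, which stores cholesterol as esters, and MYLIP. These 9 are 28.1% of the 32, by the quasi-likelihood test of edgeR, with p-values adjusted over all 13769 genes after Benjamini and Hochberg and a threshold of 0.05, where 10.1% of all genes tested passed. In one direction the shares were 7 of 32 lower, against 4.93% of all genes, and 2 of 32 higher, against 5.16%. The other 23 genes did not pass, although 21 of the 32 had an unadjusted p under 0.05, as did 4316 of all 13769 genes. The median log2 fold change of the 32 was −0.29, beside −0.00 over all genes tested. A negative value was found in 23 of the 32 and in 50.5% of all genes tested. All 4 knockdown libraries lay below both siControl libraries for 17 of the 32 genes, where 18.2% of all genes tested did so, and above both for 3, where 18.7% did so. None of the 6 libraries could be left out with all 9 calls kept. Without either siControl library none of the 9 passed, nor did any other gene tested. Without HMOX1si1 replicate 2 none of the 9 passed either, and without any other knockdown library only part of them did. How many of all genes tested passed changed in these fits as well. The fitted values of the 9 kept their sign in each case.

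**Figure D2:**
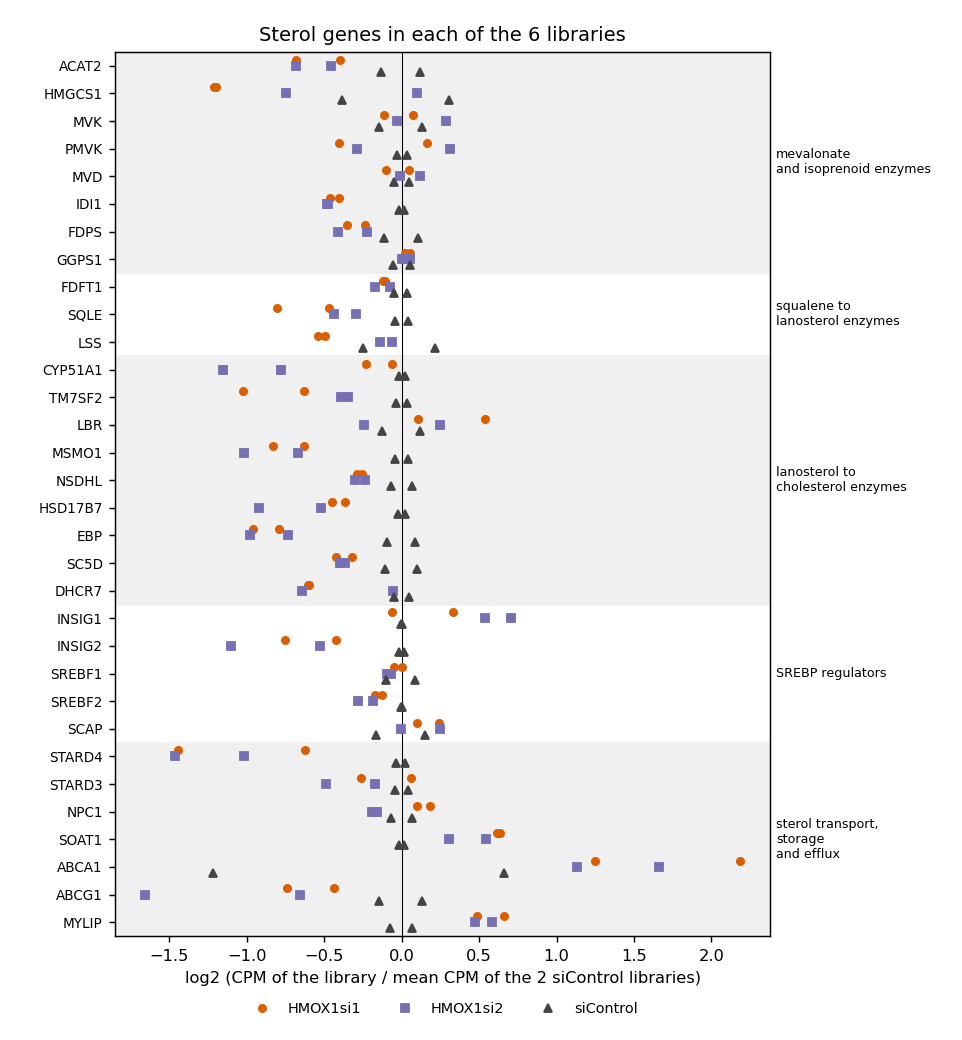
CPM of each sterol gene in each of the 6 libraries as a log2 ratio to the mean of the 2 siControl libraries, in pathway order, with orange circles for HMOX1si1, purple squares for HMOX1si2 and dark triangles for siControl. The knockdown points of 17 genes lie left of both siControl points, among them 8 of the 9 enzymes from lanosterol to cholesterol, and those of SOAT1, ABCA1 and MYLIP lie right of them.

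Among the 8 enzymes from acetyl-CoA to the prenyl diphosphates, IDI1 was lower with knockdown and the other 7 did not pass the test. That 1 call is 12.5% of the 8, near the 10.1% of all genes tested that passed, of which 4.93% were lower and 5.16% higher. IDI1 (ENSG00000067064, chr10:1039152-1049170, minus strand, GENCODE 29 on GRCh38) encodes isopentenyl-diphosphate isomerase, which makes the allylic starter of the isoprenoid chain. It had 42.0 and 43.6 CPM in HMOX1si1 and 41.6 and 41.4 CPM in HMOX1si2, against 57.1 and 58.4 CPM in siControl. The 4 knockdown libraries were close to each other and all below the controls, with replicates within 1.036-fold in each group. On the log2 scale IDI1 fell by 0.45 on average (SE 0.07, edgeR adjusted p = 0.0230), by 0.43 with HMOX1si1 (adjusted p = 0.0335) and by 0.48 with HMOX1si2 (adjusted p = 0.0376). Leaving out 1 library gave adjusted p-values from 0.0369 to 0.141 for the average, passing only when the library left out was from HMOX1si2. ACAT2, the cytosolic thiolase that makes acetoacetyl-CoA, had 32.9 and 27.0 CPM in HMOX1si1 and 27.1 and 31.6 CPM in HMOX1si2, against 39.6 and 47.2 CPM in siControl. Its knockdown libraries all lay below the controls, but with −0.55 on the log2 scale (SE 0.13, edgeR adjusted p = 0.0516) it lay just outside the threshold, and it shares exons with TCP1, so its counts may be divided between the 2 gene models.

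HMGCS1, which condenses acetoacetyl-CoA to HMG-CoA, was uneven between replicates. It had 28.5 and 28.7 CPM in HMOX1si1 and 39.3 and 70.7 CPM in HMOX1si2, against 81.4 and 50.5 CPM in siControl. Both HMOX1si1 libraries were below all others, whereas the HMOX1si2 and siControl libraries overlapped. Fitted log2 fold changes were −1.20 (SE 0.33, edgeR adjusted p = 0.0693) for HMOX1si1 and −0.26 (SE 0.32, adjusted p = 0.642) for HMOX1si2, and the difference between the siRNAs, 0.94 with a 95% interval of 0.15 to 1.74, did not pass either (adjusted p = 0.178). FDPS, farnesyl diphosphate synthase, had a mean level per kilobase of exon of 29.2 CPM per kb in HMOX1si1, 28.8 in HMOX1si2 and 35.7 in siControl, the highest of the 8 in siControl, whereas PMVK was above it in HMOX1si1 at 29.3 and in HMOX1si2 at 32.1. Its libraries stood at 113 and 104 CPM in HMOX1si1 and at 100 and 114 CPM in HMOX1si2, against 123 and 143 CPM in siControl, with all knockdown libraries below both controls and a fitted change of −0.30 on the log2 scale (SE 0.10, edgeR adjusted p = 0.112); part of its reads may belong to near-identical pseudogenes.

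MVK, PMVK, MVD and GGPS1 had average values near 0, and none passed. MVK and PMVK, the kinases that phosphorylate mevalonate in sequence, had average log2 fold changes of 0.06 (95% interval −0.29 to 0.41) and −0.03 (−0.55 to 0.50). MVD, the decarboxylase that yields isopentenyl diphosphate, stood at 0.02 (−0.21 to 0.24). GGPS1, which extends the chain to geranylgeranyl diphosphate, was at 0.03 (−0.16 to 0.23). For these 4 genes the knockdown and control libraries overlapped, and the intervals of MVK, MVD and GGPS1 leave out a fall as large as that of IDI1, whereas that of PMVK does not. MVK shares exons with MMAB and GGPS1 with ARID4B.

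Of the 3 enzymes that turn farnesyl diphosphate into lanosterol, SQLE was lower with knockdown, and 4.93% of all genes tested were lower. SQLE (ENSG00000104549, chromosome 8) encodes squalene epoxidase, an oxygen-dependent flavoenzyme and a rate-limiting step of the pathway. It had 52.8 and 41.9 CPM in HMOX1si1 and 59.7 and 54.2 CPM in HMOX1si2, against 75.2 and 71.1 CPM in siControl. All 4 knockdown libraries were below both controls, and both HMOX1si1 libraries were below both HMOX1si2 libraries. SQLE fell by 0.50 on the log2 scale on average (SE 0.11, edgeR adjusted p = 0.0486) and by 0.63 with HMOX1si1 (SE 0.13, adjusted p = 0.0403), while with HMOX1si2 its −0.36 did not pass (SE 0.13, adjusted p = 0.162). Leaving out any 1 library ended the call on average, with adjusted p-values of 0.0567 to 0.201, as did scaling by library totals, at 0.0630. FDFT1, squalene synthase and the most abundant of the 3 per kilobase, had 105 and 106 CPM in HMOX1si1 and 108 and 101 CPM in HMOX1si2, against 110 and 117 CPM in siControl. The gap between its groups was small, −0.11 on the log2 scale (SE 0.08, edgeR adjusted p = 0.357). LSS, which closes the ring to lanosterol, had 58.4 and 56.6 CPM in HMOX1si1 and 78.7 and 74.7 CPM in HMOX1si2, against 69.1 and 95.5 CPM in siControl. Both HMOX1si1 libraries were below all others, but HMOX1si2 lay within the control range, and neither siRNA passed (adjusted p = 0.0903 and 0.721).

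The 9 enzymes between lanosterol and cholesterol gave 4 of the 7 lower calls on average, CYP51A1, TM7SF2, MSMO1 and EBP, and none was higher. Their median log2 fold change was −0.55, 8 of 9 values were negative, and in 8 of 9 all 4 knockdown libraries lay below both controls. Over all genes tested, 4.93% were called lower, 50.5% had negative values and 18.2% had all 4 knockdown libraries below both controls. EBP had the smallest adjusted p of the 32 genes. EBP (ENSG00000147155, chrX:48521158-48528716, plus strand) encodes the sterol isomerase that moves the double bond from C8 to C7. It had 41.3 and 36.8 CPM in HMOX1si1 and 36.2 and 43.0 CPM in HMOX1si2, against 67.0 and 75.8 CPM in siControl. The siRNAs gave nearly equal levels, 54.6% of control with HMOX1si1 and 55.4% with HMOX1si2, and both knockdown groups were well below siControl. EBP fell by 0.86 on the log2 scale on average (SE 0.11, edgeR adjusted p = 0.0145). Without either siControl library or without HMOX1si1 replicate 2 its adjusted p lay between 0.0537 and 0.122.

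MSMO1 (ENSG00000052802, chr4:165327623-165343160, plus strand), the C4-methyl oxidase of the demethylation complex, was the other late enzyme that passed with each siRNA. It had 45.2 and 39.4 CPM in HMOX1si1 and 34.6 and 44.1 CPM in HMOX1si2, against 72.2 and 68.0 CPM in siControl. The 2 knockdown groups overlapped each other and neither reached the controls. The average fall was 0.78 on the log2 scale (value −0.78, SE 0.12, edgeR adjusted p = 0.0221), made up of −0.73 with HMOX1si1 (adjusted p = 0.0336) and −0.83 with HMOX1si2 (adjusted p = 0.0365). Leaving out 1 library left the average passing only when that library was from HMOX1si2, with adjusted p-values of 0.0190 to 0.138 over the 6. NSDHL and HSD17B7, which act after MSMO1 in the removal of the C4 methyl groups, had average log2 fold changes of −0.27 (SE 0.08, edgeR adjusted p = 0.0865) and −0.56 (SE 0.14, adjusted p = 0.0611). Neither passed, although in both genes the knockdown libraries were all below the controls, at 51.5 to 54.0 CPM against 60.5 to 66.6 CPM for NSDHL and at 5.19 to 7.60 CPM against 9.67 to 9.95 CPM for HSD17B7. HSD17B7 has a near-identical pseudogene, so its count is uncertain.

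CYP51A1 was the 1 gene of the 32 called as different between the siRNAs. CYP51A1 (ENSG00000001630, chr7:92112151-92134803, minus strand) encodes the heme-containing lanosterol 14α-demethylase. It had 66.7 and 86.1 CPM in HMOX1si2, against 142 and 126 CPM in HMOX1si1 and 146 and 150 CPM in siControl. The HMOX1si2 libraries stood apart, near 51.7% of control, while those of HMOX1si1 were just below the controls. The log2 difference, HMOX1si2 minus HMOX1si1, was −0.81 (SE 0.14, edgeR adjusted p = 0.0415), and 3.62% of all genes tested passed this comparison. Against siControl, CYP51A1 fell by 0.95 on the log2 scale with HMOX1si2 (SE 0.14, adjusted p = 0.0267) and by 0.55 on average (SE 0.12, adjusted p = 0.0450), but its value with HMOX1si1, −0.14, did not pass (SE 0.14, adjusted p = 0.537). Without 1 library the difference stayed between −1.01 and −0.64 and passed only without HMOX1si2 replicate 2 (adjusted p = 0.0418), with values of 0.0976 to 0.182 without any other library. It missed the threshold as well with scaling by library totals (adjusted p = 0.0609) and with a fit on the 2 siRNA groups alone (0.0965).

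TM7SF2, one of 2 sterol C14 reductases in human cells, was lower, whereas the other, LBR, was not. TM7SF2 (ENSG00000149809, chr11:65111845-65116384, plus strand) had 14.5 and 11 CPM in HMOX1si1 and 17.6 and 17.1 CPM in HMOX1si2, against 22.9 and 21.8 CPM in siControl. The 3 groups did not overlap, with HMOX1si1 lowest. TM7SF2 fell by 0.59 on the log2 scale on average (SE 0.13, edgeR adjusted p = 0.0458) and by 0.81 with HMOX1si1 (SE 0.16, adjusted p = 0.0326), with −0.37 and no call for HMOX1si2 (adjusted p = 0.202), and leaving out any 1 library gave 0.0524 to 0.204 for the average. Its exons overlap those of VPS51, which had an average log2 fold change of −0.12 (SE 0.09), so the split of reads between them is uncertain. LBR, which also anchors chromatin at the nuclear envelope, had 170 and 126 CPM in HMOX1si1 and 98.7 and 139 CPM in HMOX1si2, against 107 and 127 CPM in siControl. The LBR groups overlapped, with an average of 0.18 on the log2 scale (SE 0.19, edgeR adjusted p = 0.546).

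The last 2 enzymes of the list did not pass. SC5D, the lathosterol desaturase, had 20.0 and 21.5 CPM in HMOX1si1 and 20.3 and 20.8 CPM in HMOX1si2, against 28.7 and 24.9 CPM in siControl. Its knockdown libraries were tightly grouped below the controls, with a fitted −0.38 on the log2 scale (SE 0.10, edgeR adjusted p = 0.0681). DHCR7, the 7-dehydrocholesterol reductase, had 48.0 and 47.6 CPM in HMOX1si1 and 46.4 and 69.8 CPM in HMOX1si2, against 70.0 and 75.0 CPM in siControl. HMOX1si2 replicate 2 was near the controls and the other 3 knockdown libraries were not, and the average log2 fold change was −0.46 (SE 0.16, edgeR adjusted p = 0.118). Over the 20 synthesis enzymes of all 3 stages, 6 were lower and none was higher. Of all genes tested, 4.93% were lower and 5.16% higher. In 13 of the 20 all 4 knockdown libraries lay below both controls, against 18.2% of all genes tested. The 20 enzymes had a median log2 fold change of −0.42. Their summed level was 1125 and 1004 CPM in HMOX1si1 and 966.6 and 1129 CPM in HMOX1si2, against 1276 and 1349 CPM in siControl.

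**Figure D3:**
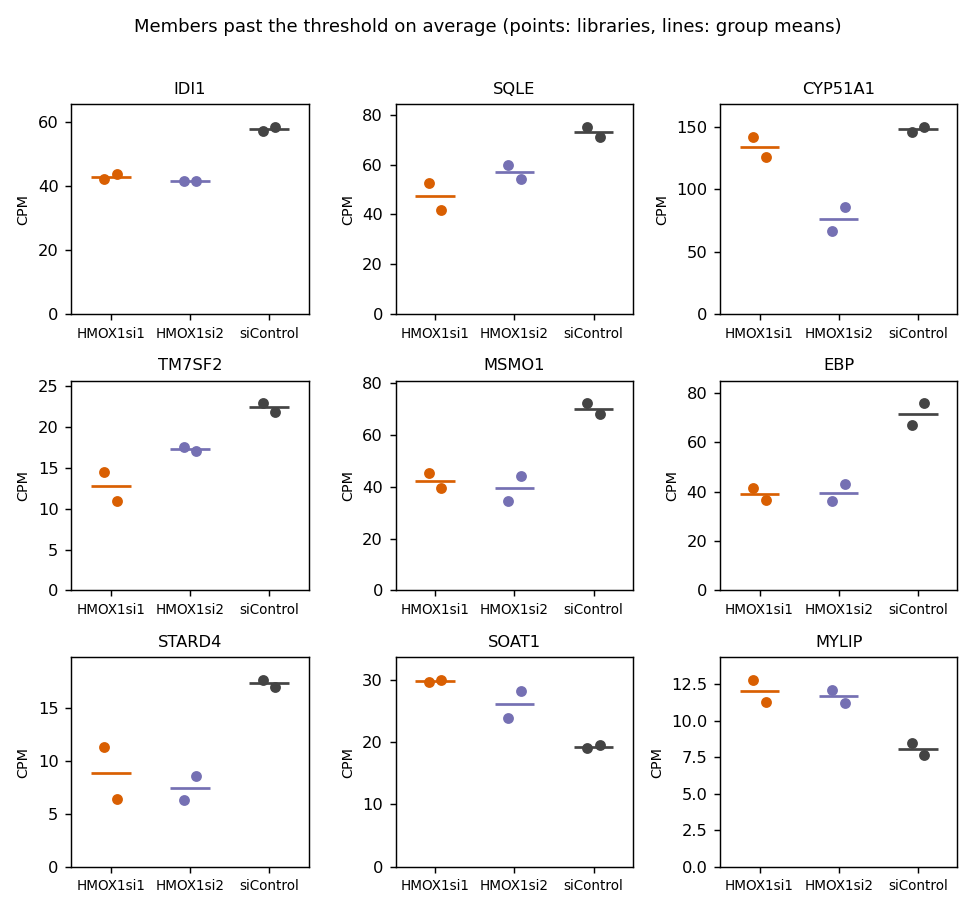
CPM of the 9 sterol genes past the threshold on average, with 1 panel a gene, points for the 2 libraries of each group and lines for group means. In all 9 panels the 4 knockdown points stand on 1 side of both siControl points, and in the CYP51A1 panel the HMOX1si1 points, 142 and 126 CPM, stand close to the siControl points.

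None of the 5 regulators of SREBP passed by edgeR on average or with either siRNA. An unadjusted p under 0.05 was found for 3 on average, 1 with HMOX1si1 and 3 with HMOX1si2. Of all 13769 genes tested, 4316, 4234 and 3560 had one in these comparisons. Limma voom called 0 of the 5 as well, with 3, 1 and 3 of them again at an unadjusted p under 0.05. The Wald test of DESeq2 called 1 of the 5 on average, 0 with HMOX1si1 and 2 with HMOX1si2. That test called 2674, 2639 and 1890 of all genes tested, where edgeR called 1389, 1381 and 789. SREBF2, the most abundant of the 5 per kilobase, had 262 and 270 CPM in HMOX1si1 and 259 and 243 CPM in HMOX1si2, against 294 and 296 CPM in siControl. All 4 knockdown libraries were below the controls by a small margin, with −0.19 on the log2 scale (SE 0.07, 95% interval −0.37 to −0.01, edgeR adjusted p = 0.150). SREBF1, whose products favour fatty acid genes, had 141 and 146 CPM in HMOX1si1 and 139 and 137 CPM in HMOX1si2, against 136 and 155 CPM in siControl. Its groups overlapped (log2 fold change −0.05, 95% interval −0.26 to 0.16), and it shares exons with RAI1. SCAP, the escort protein, was at 0.15 (95% interval −0.17 to 0.47).

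The 2 INSIG genes, whose products retain the SCAP complex, had average values of opposite sign, and neither passed. INSIG1, itself a target of SREBP-2, had 63.0 and 47.9 CPM in HMOX1si1 and 81.6 and 72.5 CPM in HMOX1si2, against 49.9 and 50.2 CPM in siControl. Both HMOX1si2 libraries were above all others, while HMOX1si1 straddled the controls. For HMOX1si1 the fitted log2 fold change was 0.15 (SE 0.15, edgeR adjusted p = 0.533), for HMOX1si2 it was 0.62 (SE 0.15, adjusted p = 0.0675), and the difference of 0.47 between them did not pass (95% interval 0.11 to 0.84, adjusted p = 0.147). INSIG2 had 35.9 and 28.5 CPM in HMOX1si1 and 22.4 and 33.4 CPM in HMOX1si2, against 48.6 and 47.6 CPM in siControl. Its knockdown libraries were all below the controls but spread widely, averaging −0.68 on the log2 scale (SE 0.18, edgeR adjusted p = 0.0628).

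Among the 7 genes of sterol transport, storage and efflux, 1 was lower and 2 were higher. Of all genes tested, 4.93% were lower and 5.16% higher. STARD4 (ENSG00000164211, chr5:111496033-111512590, minus strand) encodes a soluble carrier that moves cholesterol between membranes and is a known SREBP-2 target. It had 11.3 and 6.40 CPM in HMOX1si1 and 6.32 and 8.60 CPM in HMOX1si2, against 17.7 and 17.0 CPM in siControl. The knockdown libraries were all below the controls, and the HMOX1si1 pair was 1.769-fold apart. The average log2 fold change, −1.09 (SE 0.24, edgeR adjusted p = 0.0443), was the most negative of the 32. With 1 siRNA alone STARD4 did not pass (adjusted p = 0.0855 with HMOX1si1 and 0.0672 with HMOX1si2), and leaving out 1 library gave 0.0353 to 0.209 for the average, passing without HMOX1si1 replicate 1 or HMOX1si2 replicate 2 and not otherwise.

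SOAT1 and MYLIP were the 2 higher members. SOAT1 (ENSG00000057252, chr1:179293714-179358680, plus strand) encodes the acyltransferase that esterifies cholesterol for lipid droplets. It had 29.6 and 30.0 CPM in HMOX1si1 and 23.9 and 28.2 CPM in HMOX1si2, against 19.1 and 19.5 CPM in siControl. All 4 knockdown libraries were above both controls. SOAT1 rose by 0.53 on the log2 scale on average (SE 0.10, edgeR adjusted p = 0.0340) and by 0.63 with HMOX1si1 (SE 0.12, adjusted p = 0.0299), and stood at 0.43 with HMOX1si2, which did not pass (SE 0.12, adjusted p = 0.0891). MYLIP (ENSG00000007944, chr6:16129125-16148248, plus strand), the LXR-induced ligase that marks lipoprotein receptors for degradation, had 12.8 and 11.3 CPM in HMOX1si1 and 12.1 and 11.2 CPM in HMOX1si2, against 8.48 and 7.68 CPM in siControl. The knockdown groups overlapped each other and lay above the controls by more than the gap within any group. The rise was 0.55 on the log2 scale on average (SE 0.12, edgeR adjusted p = 0.0450). With 1 siRNA alone MYLIP did not pass, at 0.58 with HMOX1si1 (edgeR adjusted p = 0.0532) and 0.53 with HMOX1si2 (adjusted p = 0.0838). Leaving out any 1 library gave adjusted p-values of 0.0535 to 0.230 for MYLIP, and for SOAT1 0.0399 to 0.179, passing only when the library left out was from HMOX1si2.

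ABCA1 and ABCG1, the other LXR targets on the list, did not pass. ABCA1, which loads cholesterol onto apolipoprotein A-I, was near the limit of detection, with 20 and 10 counts in HMOX1si1 and 10 and 15 in HMOX1si2, against 6 and 2 in siControl. The knockdown libraries held more counts than either control, but the fitted 1.64 on the log2 scale (SE 0.67, edgeR adjusted p = 0.158) had a 95% interval from 0.00 to 3.27. ABCG1, its partner in export to high-density lipoprotein, had 2.96 and 2.40 CPM in HMOX1si1 and 1.27 and 2.54 CPM in HMOX1si2, against 4.39 and 3.61 CPM in siControl. Its knockdown libraries were all below the controls, at −0.82 (SE 0.29, edgeR adjusted p = 0.116). NPC1, which exports cholesterol from lysosomes and was the most abundant of the 7 per kilobase, had 174 and 164 CPM in HMOX1si1 and 134 and 137 CPM in HMOX1si2, against 160 and 146 CPM in siControl. HMOX1si1 was above and HMOX1si2 below the controls, with log2 fold changes of 0.14 and −0.18 of which neither passed (adjusted p = 0.349 and 0.277), and the difference of −0.32 between the siRNAs did not pass either (adjusted p = 0.126). STARD3, a tether that passes sterol between endoplasmic reticulum and endosomes, was at −0.21 (95% interval −0.53 to 0.12).

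By siRNA, HMOX1si1 gave 6 calls among the 32 genes, IDI1, SQLE, TM7SF2, MSMO1 and EBP lower and SOAT1 higher, where 10.0% of all genes tested passed, 5.01% lower and 5.02% higher. HMOX1si2 gave 4 calls, IDI1, CYP51A1, MSMO1 and EBP, all lower, where 5.73% of all genes passed, 2.67% lower and 3.06% higher. IDI1, MSMO1 and EBP passed with both siRNAs, whose comparisons share the 2 siControl libraries. The median log2 fold change of the 32 genes was −0.21 with HMOX1si1 and −0.26 with HMOX1si2, beside −0.00 and 0.00 over all genes tested. None of the 6 calls with HMOX1si1 was made without 1 of the siControl or HMOX1si1 libraries, and none of the 4 with HMOX1si2 without 1 of the siControl or HMOX1si1 libraries or without HMOX1si2 replicate 1. Calls over all genes tested fell in these fits as well. A fit on HMOX1si2 and siControl alone called 0 of the 32 and only 179 of all genes. In that fit 3072 of all genes had an unadjusted p under 0.05. The matching fit for HMOX1si1 called 8 of the 32 and 1529 of all genes.

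**Figure D4:**
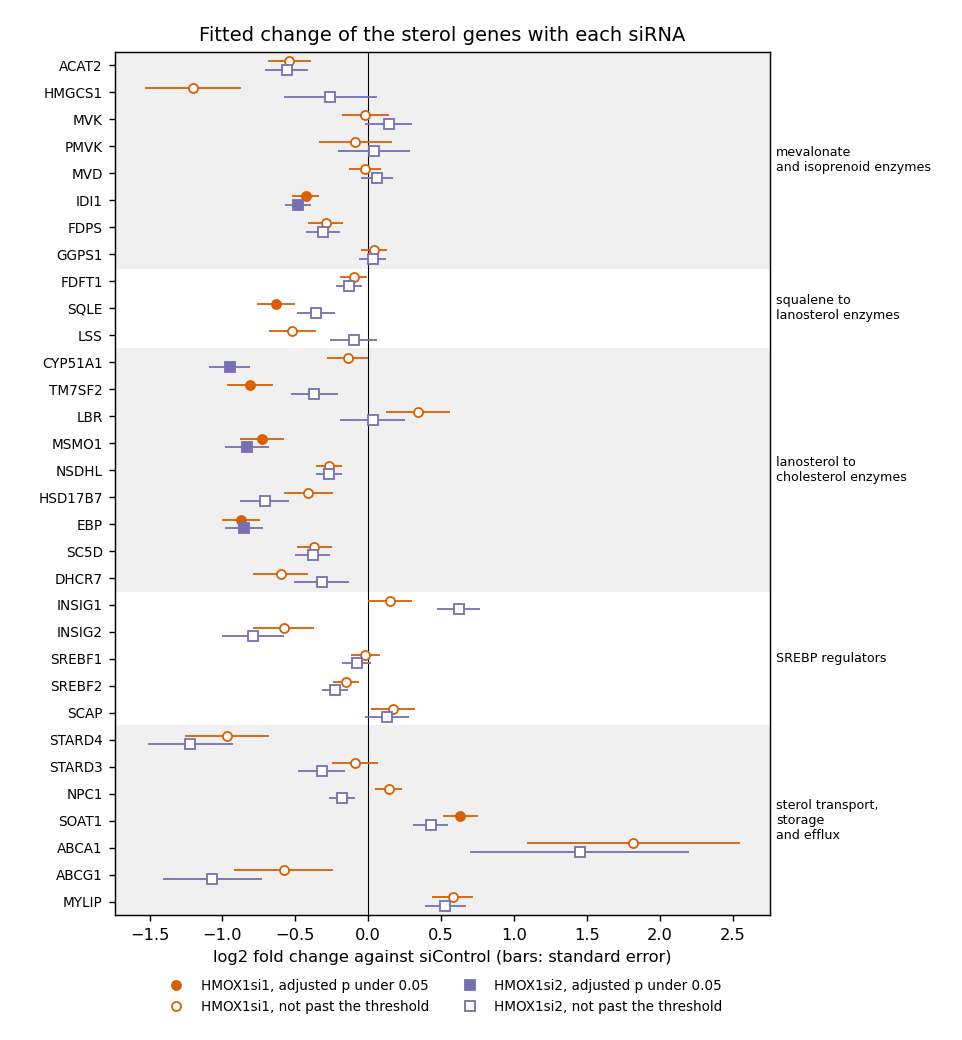
Fitted log2 fold change of each sterol gene against siControl with HMOX1si1 (orange circles) and HMOX1si2 (purple squares), bars for standard errors and filled symbols for edgeR adjusted p-values under 0.05. IDI1, MSMO1 and EBP are filled for both siRNAs, and at CYP51A1 the symbols lie apart, at −0.14 with HMOX1si1 and −0.95 with HMOX1si2.

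Replicates differed most in a few of these genes. Over 1.5-fold between the 2 libraries of a group were STARD4 and ABCA1 in HMOX1si1, HMGCS1, PMVK, DHCR7 and ABCG1 in HMOX1si2, and HMGCS1 and ABCA1 in siControl. In 22 of the 32 genes (68.8%) the replicate gap had opposite signs in HMOX1si1 and HMOX1si2, as in 70.0% of the 13541 genes above 0 in every library.

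**Figure D5:**
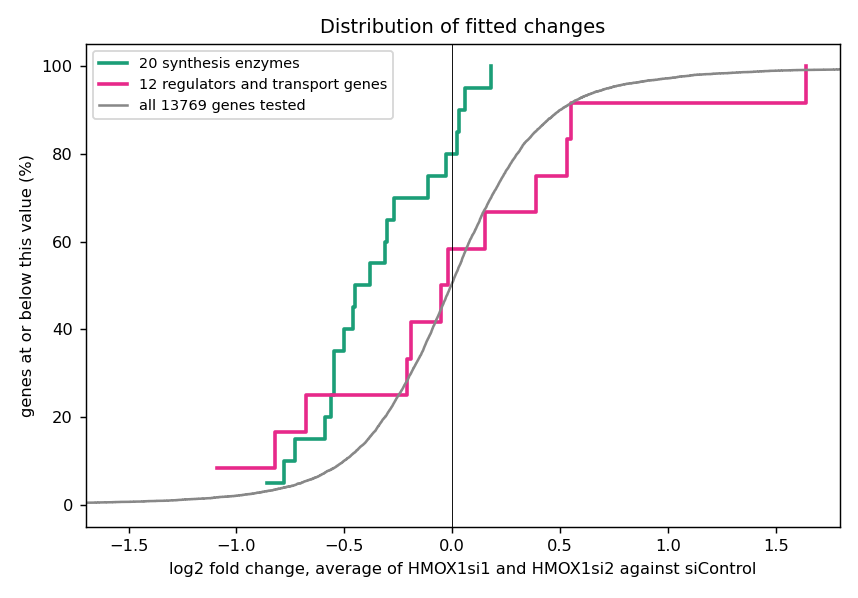
Cumulative share of genes by average log2 fold change for the 20 synthesis enzymes (green), the 12 regulators and transport genes (pink) and all 13769 genes tested (grey). At the medians the green curve lies left of the grey one, at −0.42 and −0.00, and the pink median is −0.03.

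The 12 regulators and transport genes had a median of −0.03, beside −0.42 for the 20 enzymes, with 3 and 6 calls. Neighbouring genes of the pathway were examined as 4 further lists of 61 genes in all, of which 56 were tested and 12 passed on average, 7 lower and 5 higher (21.4%), where 10.1% of all genes tested passed, 4.93% lower and 5.16% higher. In the branch that uses isoprenoids for prenylation, dolichol and ubiquinone, 1 of 13 passed on average (7.69%, below the 10.1% of all genes tested): PDSS2, a subunit of the enzyme that builds the ubiquinone tail, rose by 0.55 on the log2 scale (SE 0.10, edgeR adjusted p = 0.0304). FNTA, the shared subunit of the farnesyl and geranylgeranyl transferases, passed with HMOX1si1 at 0.46 (SE 0.10, adjusted p = 0.0430), and its exons overlap another annotated gene. The median of these 13 was −0.03.

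Among 11 genes of SREBP cleavage and sterol-regulated degradation, ERLIN2 was higher on average, and 5.16% of all genes tested were higher. ERLIN2, a scaffold of sterol-regulated degradation in the endoplasmic reticulum, had a mean of 87.9 CPM in HMOX1si1 and 86.7 CPM in HMOX1si2, against 61.6 CPM in siControl, and rose by 0.50 on the log2 scale (SE 0.08, edgeR adjusted p = 0.0221). The site proteases MBTPS1 and MBTPS2, which cleave the SREBP precursors, were at 0.01 and −0.29 and did not pass (adjusted p = 0.931 and 0.129).

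Of 21 tested genes of other sterol transport, 3 were lower and 2 higher on average, beside 4.93% and 5.16% of all genes tested. OSBPL5, an oxysterol-binding protein relative at membrane contacts, had 144 CPM in HMOX1si1 and 133 CPM in HMOX1si2, against 72.6 CPM in siControl, a rise of 0.93 on the log2 scale (SE 0.09, edgeR adjusted p = 0.00767). NCEH1, a cholesteryl ester hydrolase, fell by 0.57 (SE 0.08, adjusted p = 0.0195) and ABCA7, a lipid transporter of the ABCA family, by 0.48 (SE 0.07, adjusted p = 0.0208). GRAMD1B, which carries cholesterol from the plasma membrane to the endoplasmic reticulum, had 47.3 CPM in HMOX1si1 and 112 CPM in HMOX1si2, against 117 CPM in siControl, and its average log2 fold change of −0.69 (adjusted p = 0.0221) rests on HMOX1si1. Among 11 tested fatty acid genes regulated by SREBP factors, 3 were lower and 1 was higher, beside the same shares of all genes. ACSS2, which makes acetyl-CoA from acetate, SCD, the stearoyl-CoA desaturase, and FADS1, the Δ5 desaturase, fell by 0.66, 0.58 and 0.50 on the log2 scale (edgeR adjusted p = 0.0135, 0.0212 and 0.0489), and LPIN1, a phosphatidate phosphatase, rose by 0.41 (adjusted p = 0.0375). FADS1 shares exons with FADS2, so its count is uncertain. FASN, fatty acid synthase, was at 0.07 (adjusted p = 0.589). Of these 12 calls none was made without either siControl library, and without 1 HMOX1si1 library most were not. Calls over all genes tested fell in these fits as well.

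CCAAT stood in the window of 5 of 6 members called lower that have one, of 2 of 2 called higher and of 12 of 20 not called, so members on both sides of the threshold held it. The lower member without it was CYP51A1.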

How the data were processed

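The 6 libraries of AsPC-1 polyadenylated RNA were grouped by their labels into HMOX1si1, HMOX1si2 and siControl. The deposited table holds whole numbers taken here as estimated counts, 1 per gene and library; this unit was read from the values, and the sources used here name no aligner or counter. Low values are mostly even, 71.9% of those from 1 to 10 against 49.9% of those over 100, so how fragments were counted is not known, and if mates were counted apart, the precision of low counts is overstated. Mouse builds, GRCm38 and mm10, are named in the submitters' processing notes, but the identifiers are human. Symbols were found for 20148 of 20263 genes, and 20224 have an entry in GENCODE 29 (GRCh38), from which gene coordinates and shared exons were taken. Whether counting used strand is not given, so reads of overlapping genes cannot be told apart.

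R 4.3.3 ran edgeR 4.0.16, DESeq2 1.42.0 and limma 3.58.1. The 13769 genes that passed filterByExpr entered 1 edgeR fit of all 6 libraries (glmQLFit, glmQLFTest), with TMM scaling and a mean for each group. Contrasts were the average of both siRNAs and each siRNA against siControl, and HMOX1si2 minus HMOX1si1. P-values were adjusted after Benjamini and Hochberg over all genes tested, and 0.05 was the threshold. Standard errors are |log2 fold change| over the square root of F and give the 95% intervals. The common biological coefficient of variation was 0.165. CPM values use the TMM-adjusted library sizes. The chi-square per degree of freedom between replicates, 49 in HMOX1si1, 85.2 in HMOX1si2 and 38.5 in siControl, exceeded sampling noise.

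Full values are given for HMOX1, the members called in any comparison and those with the highest level of their stage, and up to 4 genes of each further list with the smallest adjusted p among those called. A result of the further lists that enters their total is not reported here. The members, lists and tests were chosen with earlier results of these data known. Alternatives were other scalings, no filter, voom, DESeq2, the compared groups alone, a replicate block and leaving out each library. No set test was run.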

Additional observations from a re-analysis of the deposited data

Results flagged for a closer look

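In 3 genes the effect of knockdown differed between the siRNAs by edgeR's test of the difference itself, 1 of the 32 sterol genes and 2 of the 56 tested genes of the further lists, where 3.62% of all genes tested passed, so the share is near that of all genes. CYP51A1, the heme-containing demethylase, had a log2 difference, HMOX1si2 minus HMOX1si1, of −0.81 (SE 0.14, adjusted p = 0.0415), with means of 76.4 CPM in HMOX1si2 and 134 CPM in HMOX1si1. RNF145, a sterol-responsive ubiquitin ligase of the endoplasmic reticulum, had a difference of 0.54 (SE 0.10, edgeR adjusted p = 0.0398), with means of 47.2 CPM in HMOX1si2, 32.4 CPM in HMOX1si1 and 45.2 CPM in siControl. GRAMD1B, the plasma membrane sterol carrier, had a difference of 1.24 (SE 0.13, edgeR adjusted p = 0.0129), with means of 112 CPM in HMOX1si2, 47.3 CPM in HMOX1si1 and 117 CPM in siControl. HMOX1 itself was lower with HMOX1si2 than with HMOX1si1, by 1.10 on the log2 scale (adjusted p = 0.0284, and 0.0789 to 0.141 without any 1 library, when it did not pass), so CYP51A1 was lower with the siRNA that left less HMOX1, whereas RNF145 and GRAMD1B were lower with the other. The part of the residual HMOX1 level in these differences was not tested. The difference in RNF145 did not pass without any 1 library (adjusted p = 0.0875 to 0.226), and that in GRAMD1B did not pass without either HMOX1si1 library (0.0833 and 0.0842).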

How the results depend on the processing

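HMOX1 and the calls on single genes kept their sign under every alternative run. Among members that did not pass, leaving out 1 library turned the sign of 7 on average (MVK, PMVK, MVD, GGPS1, SREBF1, SCAP and NPC1), 7 with HMOX1si1, 9 with HMOX1si2 (HMGCS1 among them) and 16 between the siRNAs; no other alternative turned any. DESeq2's size factors, limma voom and no filter on low counts kept the 9 member calls on average (9, 9 and 10 members called), the 6 with HMOX1si1 and the 4 with HMOX1si2. Scaling by library totals left 5 on average, without SQLE, CYP51A1, TM7SF2 and STARD4, and 0 between the siRNAs. Of all genes tested it called 1279 on average and 494 between the siRNAs, against 1389 and 499 with TMM scaling. DESeq2's Wald test called 15 on average, 12 with HMOX1si1, 11 with HMOX1si2, 3 between the siRNAs and 23 genes of the further lists. It also called more of all genes tested, 2674, 2639, 1890 and 1411 in the same comparisons, against 1389, 1381, 789 and 499 by edgeR. For the average, a fit on the compared groups alone is the same fit. It called 8 members and 1529 of all genes with HMOX1si1, 0 and 179 with HMOX1si2, and 0 and 156 between the siRNAs. Leaving out 1 library gave 0 to 12 members on average, 0 to 8 with HMOX1si1, 0 to 4 with HMOX1si2, 0 to 1 between the siRNAs and 0 to 14 genes of the further lists. HMOX1 ranged from −2.35 to −2.25 on average and missed the threshold without siControl replicate 1 (−2.26) or 2 (−2.34). With the replicate number as a block, 1 member was called on average (EBP), 1 with HMOX1si1, 0 with HMOX1si2, 0 between the siRNAs and 3 genes of the further lists, and calls over all genes on average fell to 255, against 1389 without the block. Same-numbered libraries did not deviate together (correlations of −0.35 between HMOX1si1 and HMOX1si2, −0.07 between HMOX1si1 and siControl and 0.06 between HMOX1si2 and siControl), so the numbers were not taken as pairs. With 2 libraries a group, the negative value between the siRNA groups is an equal positive one between their unlike-numbered libraries. Deviations of these 2 groups were thus related, whereas the fit with no block takes all libraries as independent. With the numbers crossed between the siRNA groups, an alternative chosen after seeing the data, 2 members and 1170 genes differed between them, against 1 and 499 with no block. Of 54 calls on single genes 1 missed the threshold with DESeq2's size factors, 1 with voom, 1 without the filter, 0 with DESeq2's test, 11 with library totals, 42 with the block and 13 to 53 without 1 library; 13 of 34 did so with the compared groups alone and 1 of 4 with the crossed block. With 2 libraries a group and a spread shared over all groups, the smallest fitted member change that passed was that of IDI1 with HMOX1si1 (−0.43), and a missed threshold does not show equal levels. A group left with 1 library is assumed to vary like the others. The causes of these changes were not tested.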
